A study of Mus musculus with 6 samples.

Results

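The 5 genes described here encode subunits of the phagocyte NADPH oxidase: Cybb, Cyba, Ncf1, Ncf4 and Rac2. They were chosen by their function and name from the 27998 genes in a single-cell RNA-seq table of mouse immortalized granulocyte-macrophage progenitors (iGMPs). Earlier results of these data were known at that choice, so counts over the members are a description. The cells come from C57BI/6 bone marrow that carries a GFP reporter at the lysozyme locus, and all of them hold the leukemia-associated transcription factor HOXA9 fused to an estrogen receptor domain, so that they stay immature while β-estradiol is present. In CAF-1 OFF, a line derived from 1 clone carried an IPTG-inducible hairpin that targets Chaf1b, which encodes part of CAF-1 (a chaperone that places histones on new DNA), and was given IPTG while estradiol stayed in the medium. In HOXA9 OFF, estradiol was washed out of a separate line with a control hairpin. Cells of both arms were taken at 0 h, while estradiol was present and nothing was inactivated, and after 48 and 96 h, and both arms grew in stem cell factor. There is 1 library per arm and time, 6 in all, so no test across replicates is possible. Each interval below is a 95% interval that covers counting error only, and a difference between the arms and a difference between their clones cannot be told apart.

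The phagocyte NADPH oxidase passes electrons from cytosolic NADPH across a membrane to oxygen and makes superoxide, the start of the respiratory burst with which neutrophils, eosinophils and macrophages attack microbes. Cybb and Cyba together form the membrane cytochrome, and Cyba stabilizes Cybb. Ncf1 is the organizer that moves from the cytosol to the membrane on activation, Ncf4 binds a phosphoinositide on phagosomes, and the small GTPase Rac2 completes the assembled enzyme. Loss of an oxidase subunit is the cause of chronic granulomatous disease, in which neutrophils form but kill poorly.

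In RefSeq on GRCm38.p6, Cybb lies at chrX:9435252-9487766, Cyba at chr8:122424771-122432940, Ncf1 at chr5:134220053-134229628, Ncf4 at chr15:78244164-78262582 and Rac2 at chr15:78559169-78572783. Promoter windows were matched for 3 of the 5 members, Cybb, Cyba and Ncf1. The 250 bases before the start used in the promoter table are shown because the levels of these genes were higher together in HOXA9 OFF, as described below. Each is printed 5′ to 3′ on the minus strand, on which all 3 genes lie, from chrX:9469325-9469574, chr8:122432941-122433190 and chr5:134229626-134229875. The Cybb window lies inside the span given for that gene and not at its outer end. Capitals mark matches to GAAANNGAAA, an element of the kind bound by interferon regulatory factors, on either strand.
Cybb: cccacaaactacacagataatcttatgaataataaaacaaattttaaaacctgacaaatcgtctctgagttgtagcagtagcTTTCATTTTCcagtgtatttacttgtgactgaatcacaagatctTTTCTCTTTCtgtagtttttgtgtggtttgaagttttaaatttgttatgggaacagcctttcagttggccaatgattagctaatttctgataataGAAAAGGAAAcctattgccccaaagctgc
Cyba: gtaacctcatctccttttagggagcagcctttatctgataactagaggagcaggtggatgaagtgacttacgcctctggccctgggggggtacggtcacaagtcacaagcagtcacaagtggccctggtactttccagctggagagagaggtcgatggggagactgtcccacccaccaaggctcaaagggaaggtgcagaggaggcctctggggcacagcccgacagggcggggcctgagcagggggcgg
Ncf1: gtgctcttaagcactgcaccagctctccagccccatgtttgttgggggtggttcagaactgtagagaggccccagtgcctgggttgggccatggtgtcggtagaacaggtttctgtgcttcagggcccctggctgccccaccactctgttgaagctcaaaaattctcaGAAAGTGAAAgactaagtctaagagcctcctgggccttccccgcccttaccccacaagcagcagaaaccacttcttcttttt

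The Cybb window held 3 matches to GAAANNGAAA, of which the nearest ended 19 bases before the start, and the Ncf1 window held 1, which ended 72 bases before the start. The Cyba window held none. Of 32851 RefSeq promoter windows of this length, 2.98% held a match. GAGGAA, the core of elements bound by PU.1, is in 23.3% of the windows, and TTGCNNAA, a C/EBP type element, is in 9.56%, and neither is in any of the 3 windows on either strand. Binding was not measured in these files, and Ncf4 and Rac2 were not searched.

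After removal of barcodes with over 10% mitochondrial UMIs, 5872 cells were left of 7821, between 473 and 1510 per library, with 3524285 to 5589486 UMIs per library. A UMI is a molecular tag that marks 1 captured transcript. Of 7787 barcode sequences, 34 were found in more than 1 library. The share of barcodes removed ranged from 0.198% in HOXA9 OFF at 96 h to 66.2% in HOXA9 OFF at 0 h. At 0 h the median cell of CAF-1 OFF held 6571 UMIs and that of HOXA9 OFF 8660, and at 96 h 5956 and 2043.5, respectively. Chaf1b, the target of the hairpin, stood at 35.6 CPM (counts per 1000000 UMIs of the library) at 0 h, 3.22 CPM at 48 h and 6.49 CPM at 96 h of CAF-1 OFF. In HOXA9 OFF it stood at 51.5, 15.3 and 1.13 CPM. The 11 late granulocyte markers were S100a8, S100a9, Ltf, Ngp, Camp, Ly6g, Lcn2, Mmp8, Mmp9, Cxcr2 and Retnlg. Their summed level went from 29.8 to 10358 to 151571 CPM in HOXA9 OFF and from 33.5 to 719 to 1194 CPM in CAF-1 OFF. All 11 were above 0 in HOXA9 OFF at 48 and 96 h. In CAF-1 OFF, 1 and 2 of them were at 0 at these times. Most of the CAF-1 OFF sum came from Mmp8 (24.2, 582 and 724 CPM) and Lcn2 (8.78, 117 and 428 CPM). S100a8 came next at 48 and 96 h, with 14.3 and 22.4 CPM. On the scale of log2(CPM + 10), the median ratio of the 11 in CAF-1 OFF was 0.12 at 48 h and 0.51 at 96 h. The 6 progenitor markers (Cd34, Flt3, Kit, Sox4, Myb and Gata2) were above 0 in each library. Their sum went from 1252 to 199 to 58.7 CPM in HOXA9 OFF and from 1327 to 1305 to 1178 CPM in CAF-1 OFF. The sum over 9 eosinophil markers went from 1481 to 19340 to 3302 CPM in HOXA9 OFF. That over 9 monocyte and macrophage markers went from 471 to 529 to 646 CPM. It hides opposite changes, since Ccr2 went from 348 to 60.6 to 69.0 CPM and Csf1r from 0 to 57.6 to 114 CPM. Adgre1 went from 3.58 to 119 to 127 CPM, Ms4a6c from 5.49 to 125 to 226 CPM and F13a1 from 113 to 162 to 89.7 CPM. In CAF-1 OFF, the eosinophil sum went from 228 to 482 to 1265 CPM and the monocyte and macrophage sum from 651 to 575 to 439 CPM. The part of these changes in cell makeup and maturity in the oxidase levels was not tested, and within a library sum, fewer cells with a transcript and less of it per cell cannot be told apart.

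Cybb, the catalytic subunit, was not detected in either 0 h library, and appeared in HOXA9 OFF. The CAF-1 OFF library of 0 h had 0 Cybb UMIs, which allows up to 0.712 CPM, and those of 48 and 96 h had 2.15 and 5.19 CPM. In HOXA9 OFF it had 0 UMIs at 0 h, which allows up to 0.716 CPM, and 198.9 CPM (187.0 to 211.2) and 645.5 CPM (619.3 to 672.6) at 48 and 96 h. Against these limits, Cybb was at least 278-fold higher at 48 h and at least 902-fold higher at 96 h in HOXA9 OFF, and at least 3.02-fold and 7.29-fold higher in CAF-1 OFF. The CAF-1 OFF values rest on 12 and 28 UMIs, and their intervals (1.11 to 3.75 and 3.45 to 7.50 CPM) overlap. The ratio of 96 to 48 h, taken as UMIs per cell, was 2.37 (1.17 to 5.13). At 96 h, Cybb was 124-fold (85.8 to 188) higher in HOXA9 OFF than in CAF-1 OFF.

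Cyba, its partner in the membrane, was detected in all 6 libraries. In order of time, CAF-1 OFF had 465, 601 and 825 CPM, whereas HOXA9 OFF had 645, 2336 and 3266 CPM. It was the member with the highest ratio in CAF-1 OFF that does not depend on a library at 0, 1.78-fold (1.68 to 1.87) at 96 h, against 5.06-fold (4.85 to 5.28) in HOXA9 OFF. In the order of its levels, the neighbours HOXA9 OFF at 0 h and CAF-1 OFF at 48 h had overlapping intervals and the others did not.

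Ncf1, the organizer, stayed between 48.1 and 62.1 CPM with CAF-1 OFF (56.9 CPM at 0 h), whereas with HOXA9 OFF its level was 52.5, 282 and 621 CPM. The 4 lower libraries, all of CAF-1 OFF and HOXA9 OFF at 0 h, followed each other with overlapping intervals. Among the members with a measurable 0 h level, Ncf1 had the highest ratio in HOXA9 OFF, 5.38-fold (4.66 to 6.22) at 48 h and 11.8-fold (10.3 to 13.7) at 96 h, while in CAF-1 OFF it was 0.845-fold (0.707 to 1.01) at 48 h and 1.09-fold (0.921 to 1.29) at 96 h of its 0 h level.

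For Ncf4, the phosphoinositide-binding subunit, the CAF-1 OFF libraries gave 104, 109 and 147 CPM, and the HOXA9 OFF libraries gave 120, 440 and 627 CPM. Its ratio at 96 h was 1.42 (1.26 to 1.60) in CAF-1 OFF and 5.21 (4.73 to 5.75) in HOXA9 OFF. The HOXA9 OFF libraries at 48 and 96 h lay above all the others, CAF-1 OFF at 96 h came next, and the other 3 followed each other with overlapping intervals.

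Rac2, the GTPase, which also works in cell migration outside the oxidase, was at 472, 422 and 437 CPM under CAF-1 OFF. Under HOXA9 OFF it was at 496, 1107 and 1392 CPM. Its ratio was 2.23 (2.12 to 2.34) at 48 h and 2.80 (2.66 to 2.95) at 96 h in HOXA9 OFF, the lowest of the members, and 0.894 (0.842 to 0.949) and 0.925 (0.871 to 0.983) in CAF-1 OFF. The 4 libraries below 500 CPM followed each other in order with overlapping intervals. These values are shares of all UMIs of a library. Counted per cell, the direction of Rac2 in HOXA9 OFF turned, as described below.

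**Figure D1:**
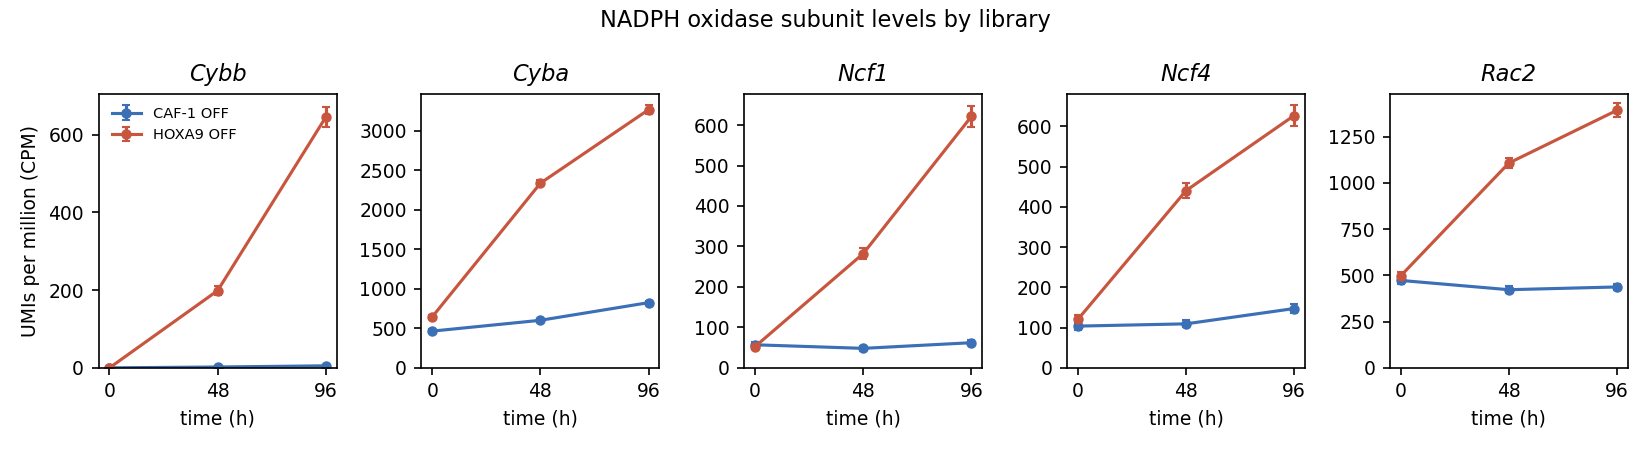
Level of each subunit (CPM, vertical axis, from 0) against time (h, horizontal axis) in CAF-1 OFF and HOXA9 OFF, 1 library per point, with 95% counting intervals as bars. The HOXA9 OFF libraries at 48 and 96 h lie above all others for each of the 5 genes (Cybb 198.9 and 645.5 CPM), on the scale of shares of UMIs; counted per cell, Rac2 is lower at 96 h than at 0 h.

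Across the 5 members, ratios were taken on the log2(CPM + 10) scale, which understates the change of low genes, and a gene was called where it differed by at least 2-fold among the 4789 genes whose mean over the 6 libraries reached 20 CPM. All 5 members passed this level, Cybb only through HOXA9 OFF, so it had to be higher there. In HOXA9 OFF, 5 of 5 members were called higher as shares of UMIs (Rac2 was lower per cell) at 48 h, where 13% of all genes tested were higher and 19.6% lower, and 5 of 5 at 96 h, where 18.1% were higher and 39.8% lower. Their median log2 ratio was 1.84 at 48 h and 2.32 at 96 h, beside -0.23 and -0.56 over all genes tested. In CAF-1 OFF, 0 of 5 members were called in either direction at 48 h, where 2.76% of genes were higher and 0.0418% lower, and 0 of 5 at 96 h, where 5.22% were higher and 0.856% lower. Their median log2 ratio was 0.07 at 48 h and 0.47 at 96 h, beside 0.00 and -0.08 over all genes. Cybb is short of 2-fold in CAF-1 OFF only through the added 10 CPM, and with 1 CPM added it was called at both times. Setting Cybb at its bound did not move any of these medians, since another member holds the middle place.

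Compared with each other, the arms parted by 48 h. At 0 h, 0 of 5 members passed 2-fold in favour of HOXA9 OFF (0.752% of all genes), and the ratio was 1.39 (1.31 to 1.47) for Cyba and 1.16 (1.02 to 1.32) for Ncf4, with intervals that include 1 for Ncf1 and Rac2. At 48 h, 5 of 5 were higher in HOXA9 OFF (10.0% of all genes), and at 96 h, 5 of 5 (15.6%). Cybb passed the level only through HOXA9 OFF, so its call adds nothing to these counts. All the other members were called at both times. The ratio at 96 h was 10.0 (8.91 to 11.3) for Ncf1, 4.25 (3.92 to 4.62) for Ncf4, 3.96 (3.83 to 4.10) for Cyba and 3.18 (3.03 to 3.35) for Rac2. The comparisons at 48 and 96 h share no library.

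Between 48 and 96 h in HOXA9 OFF, the members parted into those that passed 2-fold once more and those that did not. Cybb was 3.25-fold (3.02 to 3.50) and Ncf1 2.20-fold (2.06 to 2.35) higher at 96 h than at 48 h, so that 2 of 5 members were called, against 6.56% of all genes. Ncf4 was 1.42-fold, Cyba 1.40-fold and Rac2 1.26-fold higher as a share of UMIs. Counted per cell, these 3 were lower at 96 h than at 48 h, at 0.879-fold (0.829 to 0.932), 0.863-fold (0.841 to 0.885) and 0.776-fold (0.747 to 0.806).

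Cells of HOXA9 OFF held fewer UMIs with time, so the scale of counting matters for the members, and values per cell were added after the data were seen. Cybb went from 0 to 0.752 to 1.51 UMIs per cell and Ncf1 from 0.465 to 1.07 to 1.45. Cyba went from 5.72 to 8.84 to 7.62 UMIs per cell, and Ncf4 from 1.07 to 1.67 to 1.46. Rac2 went from 4.40 to 4.19 to 3.25 UMIs per cell, a ratio of 0.739 (0.702 to 0.778) at 96 h, opposite to its share of UMIs. On this scale, the median over all genes tested was -2.03 (log2) at 96 h, and the 5 members had a median of 0.44. The part of the fewer UMIs per cell in these ratios was not tested beyond this comparison of scales.

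Among 10 genes that work with the oxidase, 3 were called higher and none lower in HOXA9 OFF at 48 h and 5 higher and none lower at 96 h, with a median log2 ratio of 0.66 and 0.98. Over all genes tested, the shares were 13% higher and 19.6% lower at 48 h, and 18.1% and 39.8% at 96 h. These calls are on the share of UMIs. Hvcn1, the proton channel that balances the charge moved by the oxidase, was 5.54-fold (4.10 to 7.60) higher in HOXA9 OFF and 4.50-fold (3.35 to 6.14) higher in CAF-1 OFF at 96 h. It was the 1 gene of this list called in CAF-1 OFF, where 5.22% of all genes were higher and 0.856% lower at 96 h. Prkcd, a kinase that phosphorylates Ncf1, was 4.98-fold (4.22 to 5.89) higher in HOXA9 OFF and 0.972-fold (0.787 to 1.20) in CAF-1 OFF. Arhgdib, which holds Rac proteins in the cytosol, Prex1, an exchange factor for Rac, and Rap1a, a GTPase found with the cytochrome, were the other calls at 96 h. Prex1 passed the level only through HOXA9 OFF and so had to be higher there. Per cell, Arhgdib went from 8.24 UMIs at 0 h to 6.61 at 96 h, Rap1a from 1.69 to 0.972 and Prex1 from 0.118 to 0.116, so none of these 3 was higher on that scale, while Hvcn1 went from 0.112 to 0.164 and Prkcd from 0.376 to 0.493. The ubiquitous Rac1 was at 322, 448 and 599 CPM in HOXA9 OFF, 1.86-fold (1.74 to 2.00) higher at 96 h as a share of UMIs and 0.491-fold (0.458 to 0.526) per cell. The table carries Cybc1, the chaperone of the cytochrome, under its older symbol BC017643, which was 1.63-fold (1.25 to 2.12) higher at 96 h as a share of UMIs and lower per cell (0.218 and 0.0934 UMIs at 0 and 96 h). Of the other oxidases and their partners, Nox1, Nox3, Nox4, Duox1 and Duox2 had 0 UMIs in each of the 6 libraries, Noxa1 had 4 UMIs in CAF-1 OFF at 96 h and none elsewhere, and Noxo1 had at most 3 in a library.

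The enzymes that supply NADPH moved unevenly. Of 7 listed, 6 passed the level, and 3 were called higher and 1 lower in HOXA9 OFF at 96 h (median log2 ratio 0.98; 18.1% and 39.8% over all genes), and 0 in CAF-1 OFF (-0.23; 5.22% and 0.856%). G6pdx, which opens the pentose phosphate pathway, went from 18.4 to 78.9 to 99.0 CPM in HOXA9 OFF, and was 5.39-fold (4.20 to 6.99) higher at 96 h. With 16.5 to 18.7 CPM in CAF-1 OFF, G6pdx passed the level only through HOXA9 OFF and so had to be higher there. Pgd and Taldo1 of the same pathway were 2.47-fold and 3.79-fold higher as shares of UMIs, though not per cell, where Pgd went from 1.70 to 1.10 UMIs and Taldo1 from 4.29 to 4.28. Pgls, the lactonase between G6pdx and Pgd, was 0.402-fold (0.366 to 0.441) of its 0 h level.

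Of 10 enzymes that make use of or remove superoxide and hydrogen peroxide, 2 were called higher and 2 lower in HOXA9 OFF at 96 h (median log2 ratio -0.16), where the shares over all genes were 18.1% and 39.8%. Gsr, which keeps glutathione reduced, was 14.0-fold (12.6 to 15.7) higher and the peroxiredoxin Prdx5 11.5-fold (10.9 to 12.0) higher in HOXA9 OFF. These 2 were also the genes of this list called in CAF-1 OFF at 96 h, at 2.61-fold (2.34 to 2.92) and 2.51-fold (2.39 to 2.63). Over all genes there, 5.22% were higher and 0.856% lower. Mpo, the azurophil granule enzyme that turns hydrogen peroxide into hypochlorous acid, had 978, 890 and 18.4 CPM over the 3 times of HOXA9 OFF, whereas CAF-1 OFF gave 1451, 1928 and 2415 CPM. So the libraries with the highest Cybb had the lowest Mpo. Sod1, the cytosolic superoxide dismutase, was 0.230-fold (0.185 to 0.283) of its 0 h level in HOXA9 OFF at 96 h.

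Of 11 receptors that set off the burst, Clec7a was not analysed here and Tlr4 was below the level. Of the other 9, Fpr1, Fpr2, C5ar1, Itgam, Tlr2 and Ptafr passed the level only through HOXA9 OFF and so had to be higher there, and no count over the 9 is given for that arm. Fcer1g, the signalling chain of Fc receptors, and Fcgr3, an Fc receptor, were above 20 CPM in all 6 libraries, and at 96 h of HOXA9 OFF they were 3.31-fold (3.19 to 3.43) and 7.31-fold (from 6.69 at the lower end) higher than at 0 h. The chemoattractant receptors Fpr1, Fpr2 and C5ar1 had 6.21, 13.6 and 31.8 CPM at 48 h and 357, 320 and 388 CPM at 96 h, so most of their level came after 48 h, when Cyba and Rac2 were already at 2336 and 1107 CPM. At 96 h of CAF-1 OFF, 4 of the 9 were called higher and none lower, where 5.22% of all genes were higher and 0.856% lower. The 4 were C5ar1 (13.7 CPM from 0), Fcgr3 (2.73-fold, 2.49 to 3.00), the integrin chain Itgam (12.4 CPM from 0.712) and its partner Itgb2 (8.12-fold, 5.61 to 12.1). Fpr1 and Fpr2 had 0 UMIs in all CAF-1 OFF libraries.

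**Figure D2:**
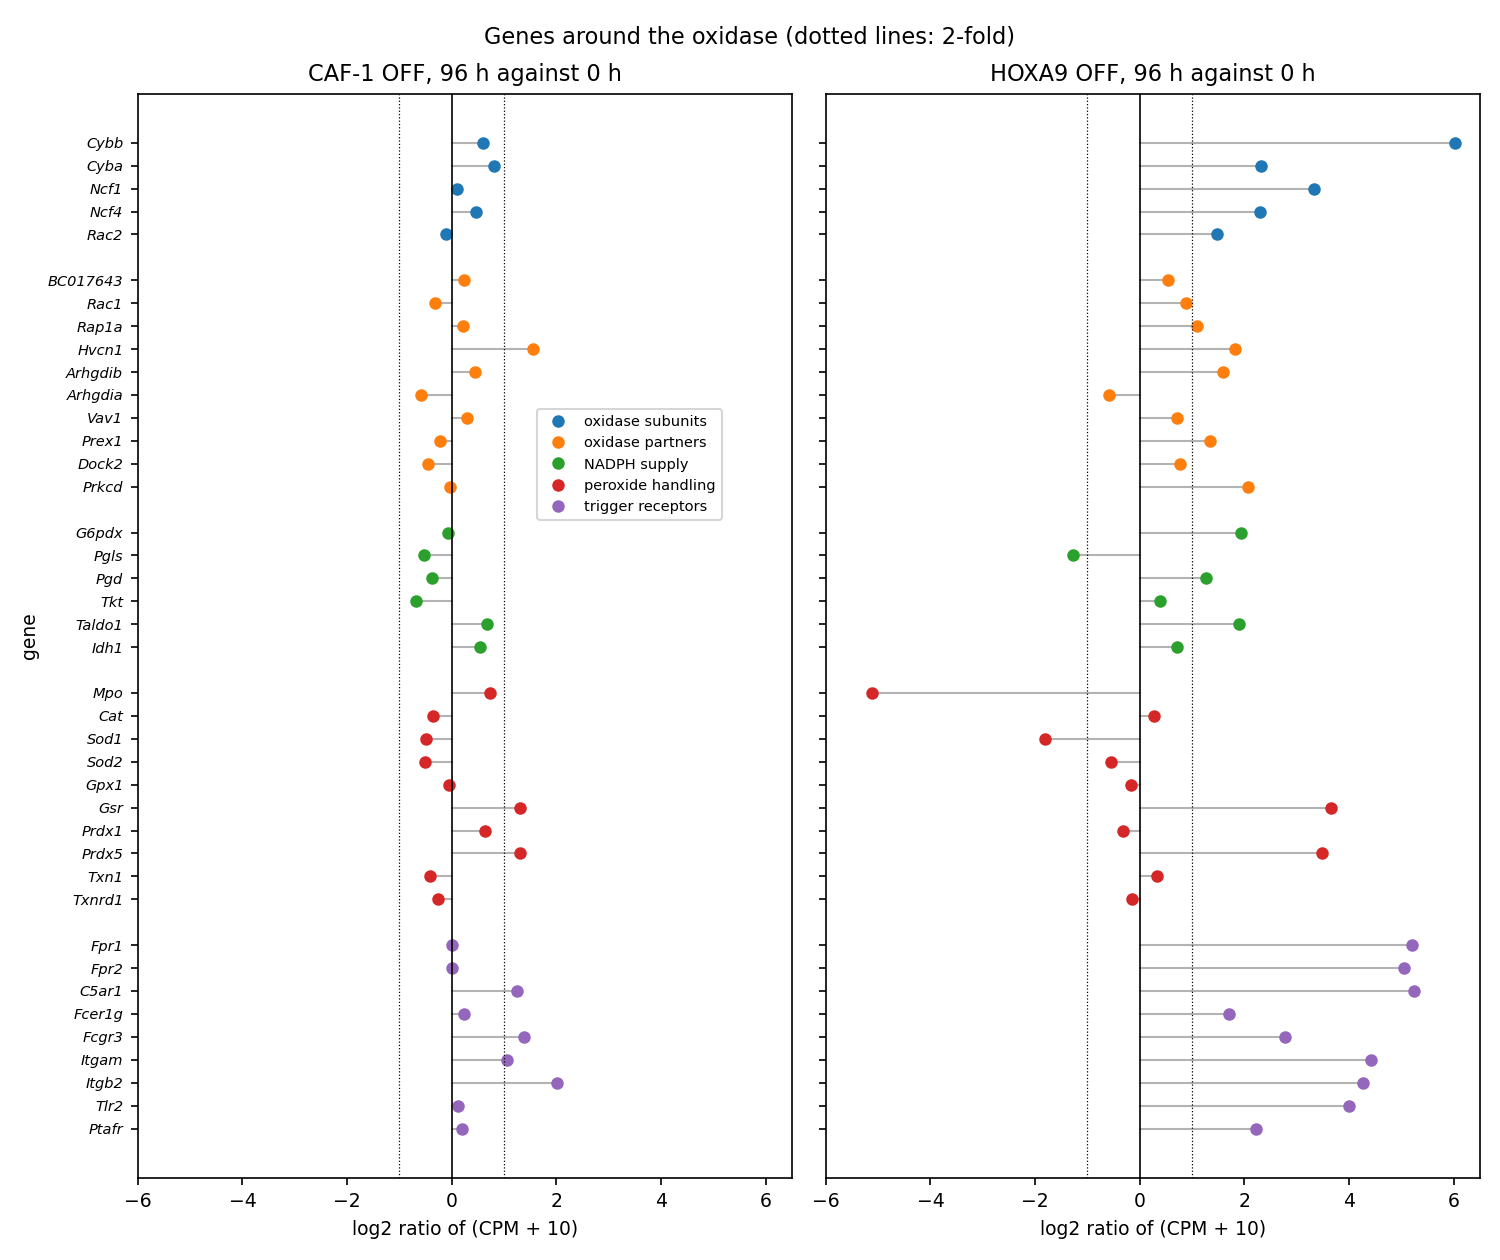
Log2 ratio of (CPM + 10) at 96 h against 0 h (horizontal axis) for each oxidase subunit and listed gene around it that passed the level (vertical axis), in CAF-1 OFF (left) and HOXA9 OFF (right), 1 library per group. All 5 subunits lie beyond the dotted 2-fold line in HOXA9 OFF and none does in CAF-1 OFF; on the scale per cell Rac2 is lower in HOXA9 OFF.

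The genes whose pattern over the 6 libraries was most like that of a member were found by Pearson's r of log2(CPM + 10) among 3279 genes that spanned at least 2-fold. With 6 points, of which 2 are high, many genes reach an r near 1, so the names are a description. The closest to Cybb were Hmha1, Abtb1 and Clec4a3 (r = 0.999 to 1.000), to Cyba Mafg, Mapk3 and Atp6v0b (0.998 to 0.999), to Ncf1 Fos, Mir142hg and Camp (0.998 to 0.999), and to Rac2 Cnppd1, G6pdx and Gm10116 (0.996 to 0.997). Prr13 and Fuca1 were among the closest to Ncf4 (0.999). Between members, r ranged from 0.961 for Cyba and Rac2 to 0.996 for Cybb and Ncf1.

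To compare single cells, each was thinned to 1300 UMIs. This left 472 to 1376 cells per library and took out 134 shallower cells in HOXA9 OFF at 96 h and 1 to 28 in the other libraries. Cybb was then found in 0 of 633 cells in CAF-1 OFF and 0 of 472 in HOXA9 OFF at 0 h, which allows a share of up to 0.474% and 0.636% (3 cells of the total). At 48 and 96 h, 0.221% and 0.998% of CAF-1 OFF cells held a Cybb UMI, against 23.0% (20.8 to 25.4) and 51.9% (49.2 to 54.6) of HOXA9 OFF cells. Unthinned, 0, 0.863 and 2.20% of CAF-1 OFF cells held one, and 0, 41.5 and 64.4% of HOXA9 OFF cells. The 0 h libraries hold no Cybb UMI at all, so they do not measure how much free Cybb RNA reaches other cells at 48 and 96 h, and its part in these shares was not tested.

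A thinned cell of CAF-1 OFF showed 1.09, 1.18 and 1.33 of the 5 members on average at the 3 times, and a cell of HOXA9 OFF showed 1.27, 2.69 and 3.42. The share of cells with at least 3 members was 3.95%, 5.29% and 8.87% for CAF-1 OFF, compared with 6.99%, 55.5% and 84.2% for HOXA9 OFF. All 5 were found together in 0 cells of each CAF-1 OFF library and of HOXA9 OFF at 0 h, in 3.56% (2.65 to 4.68) of HOXA9 OFF cells at 48 h and in 12.1% (10.4 to 13.9) at 96 h. Unthinned, all 5 were found in 20.9% and 31.9% of the HOXA9 OFF cells at 48 and 96 h, and in 1 and 6 cells of CAF-1 OFF, so the share depends on the depth. The part of free RNA in it was not tested.

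**Figure D3:**
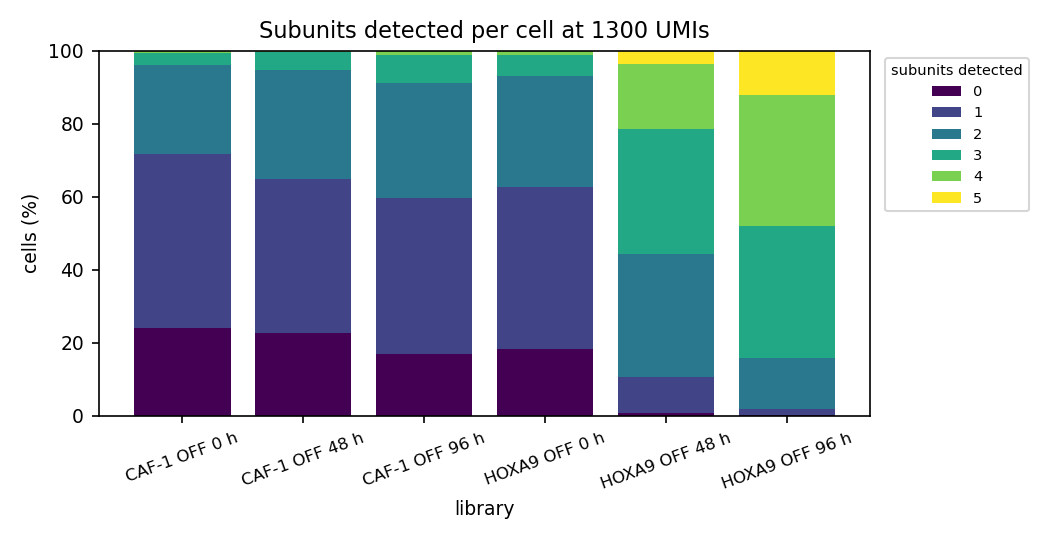
Share of cells (%, vertical axis) with 0 to 5 of the subunits detected at 1300 UMIs per cell, in each of the 6 libraries (horizontal axis). Cells with at least 3 subunits make up 55.5% and 84.2% of HOXA9 OFF at 48 and 96 h and at most 8.87% of the other libraries.

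Within HOXA9 OFF, the share with all 5 was close to the product of the 5 single shares at 96 h, 12.6%, and above it at 48 h, where the product was 2.31%. At 48 h, the shares of each of the other members were higher in the cells with a Cybb UMI than in those without, but the intervals overlap. Ncf4 was found in 47.6% (42.0 to 53.3) of 317 cells with Cybb and in 41.5% (38.6 to 44.6) of 1059 cells without. Rac2 was found in 81.1% (76.3 to 85.2) and 74.6% (71.9 to 77.2), Ncf1 in 37.2% (31.9 to 42.8) and 31.1% (28.3 to 34.0), and Cyba in 96.5% (93.9 to 98.3) and 93.7% (92.0 to 95.1). At 96 h, the shares were 56.0% and 53.6% for Ncf4, 82.4% and 84.0% for Rac2, 53.6% and 56.0% for Ncf1 and 97.2% and 97.6% for Cyba, again with overlapping intervals. Cells of 1 library are not replicates, so no test was made.

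The members also varied with the granule genes that a cell expressed. Cells of HOXA9 OFF were split by whether S100a8 and S100a9, abundant in neutrophils, or Prg2, Prg3 and Epx, eosinophil granule proteins, made up at least 1% of their UMIs. These are ranges and not cell types. At 48 h, 214 cells were S100a8/S100a9-high, 243 were Prg2/Prg3/Epx-high, 947 were neither and 0 were high in both, and 226 cells lay between 0.5 and 2%. The median share of Prg2, Prg3 and Epx was 0.0558% in the S100a8/S100a9-high cells and 10.1% in the Prg2/Prg3/Epx-high cells, whose median share of S100a8 and S100a9 was 0. As a share of UMIs, each member was lowest in the Prg2/Prg3/Epx-high cells and highest in the S100a8/S100a9-high cells, but the latter were shallower (median 2731 UMIs, against 3735 and 3709 in cells of neither range), and per cell Cyba, Ncf4 and Rac2 were highest in cells of neither range. These held 9.43, 1.83 and 4.44 UMIs per cell of the 3 genes, against 7.88, 1.76 and 4.10 in the S100a8/S100a9-high cells. Cybb had 100.3 CPM (80.7 to 123) in the former, 185 CPM (172 to 199) in cells of neither range and 430 CPM (379 to 485) in the latter, a ratio of 4.28 (3.36 to 5.50). The ratio between these ranges was 2.52 (2.07 to 3.08) for Ncf1, 2.36 (2.00 to 2.80) for Ncf4, 1.62 (1.47 to 1.79) for Rac2 and 1.38 (1.29 to 1.48) for Cyba. Cybb UMIs were found in all 3 ranges. S100a8 was at 137 CPM in the Prg2/Prg3/Epx-high cells and at 26657 CPM in the S100a8/S100a9-high cells, which were chosen by it, and the part of transcripts from other cells in the Cybb of the former was not tested.

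**Figure D4:**
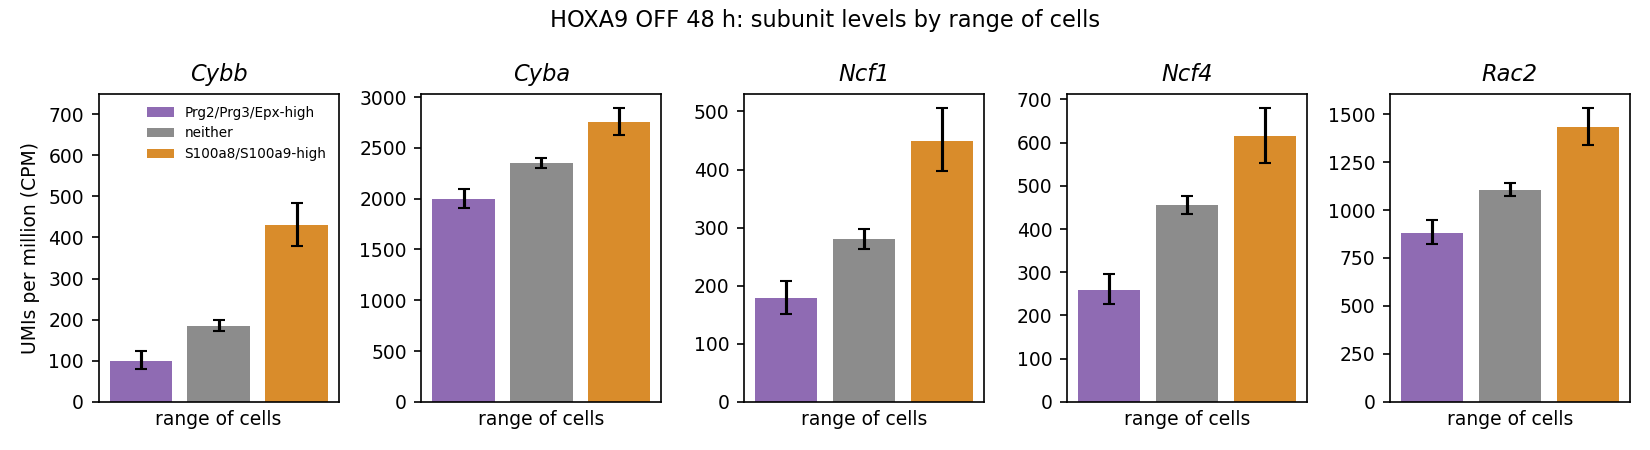
Level of each subunit (CPM, vertical axis, from 0) in HOXA9 OFF at 48 h in the Prg2/Prg3/Epx-high cells (243), cells of neither range (947) and the S100a8/S100a9-high cells (214), as bars with 95% counting intervals. As shares of UMIs, all 5 subunits step up in this order, Cybb from 100.3 to 185 to 430 CPM; per cell, Cyba, Ncf4 and Rac2 are highest in cells of neither range.

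At 96 h, 1300 cells were S100a8/S100a9-high, 159 were neither and 50 were Prg2/Prg3/Epx-high, with 1 cell high in both and 86 cells near the limit. Cybb was 6.64-fold (4.14 to 11.4) higher in the S100a8/S100a9-high than in the Prg2/Prg3/Epx-high cells, at 736 and 111 CPM. The ratio was 1.23 (1.12 to 1.37) for Cyba and 1.25 (1.00 to 1.59) for Ncf4, and for Ncf1 and Rac2 the interval, which starts at 0.962 and 0.895, includes 1. Per cell, Cyba (7.14 and 8.28 UMIs), Ncf1 (1.45 and 1.74), Ncf4 (1.38 and 1.58) and Rac2 (3.09 and 4.3) were lower in the S100a8/S100a9-high than in the Prg2/Prg3/Epx-high cells. Only Cybb (1.58 and 0.34) was higher on that scale. The order of 48 h did not hold, since Ncf1 and Rac2 were 1.54-fold (1.19 to 1.99) and 1.21-fold (1.03 to 1.41) higher in the Prg2/Prg3/Epx-high cells than in cells of neither range. The Prg2/Prg3/Epx-high value of Cybb rests on 17 UMIs. Mpo had 2 UMIs in the 1300 S100a8/S100a9-high cells and 63 in the 159 cells of neither range. All 65 Mpo UMIs of this library lay in 6 cells (0.397%).

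In CAF-1 OFF at 96 h, Cybb was found in 20 of 911 cells before thinning, with at most 3 UMIs in a cell. These cells were looked at after their values were seen. None of their 20 barcode sequences was found in another library, and their median UMI count was 3308, against 5983 in the 891 cells without Cybb. Pf4, a megakaryocyte gene, was found in 9 of the 20 (45.0%, 23.1 to 68.5) and in 96.9% (95.5 to 97.9) of the others, Cpa3, a mast cell protease, in 8 of 20 and in 95.8%, and Mpo in 11 of 20 and in 98.7%. At 48 h, where 8 cells held Cybb, it was the other way for Pf4, found in 7 of 8 (87.5%, 47.3 to 99.7) and in 57.5% of the others, and Mpo was found in 8 of 8. At 96 h, S100a8 was found in 1 of the 20 and in 5.61% of the others, and Prg2 in 3 and in 16.6%. Csf1r, the receptor that marks monocytes, was found in 0 and in 1.35%. Itgam was found in 4 (5.73 to 43.7%) and in 6.40% (4.88 to 8.21). At 48 h, Csf1r was found in 2 of the 8 (3.19 to 65.1%) and in 0.979% (0.449 to 1.85) of the others. S100a8 was found in 2 of the 8 as well, and in 4.57% (3.31 to 6.13) of the others. Prg2 was found in 0 of the 8 and in 6.96%, and Itgam in 1 and in 1.52%. Of these 4 genes, only Csf1r at 48 h had intervals that did not overlap.

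In all 20 cells with Cybb at 96 h, Cyba was at 1579 CPM (1323 to 1870), Ncf1 at 153 CPM (81.6 to 262), Ncf4 at 412 CPM (287 to 574) and Rac2 at 872 CPM (685 to 1095), each above its level in the 891 cells without Cybb (813, 60.6, 143 and 430 CPM). In the 8 cells with Cybb at 48 h, only Cyba, at 1079 CPM (774 to 1464), had an interval clear of its level in the others (598 CPM). Ncf1 was at 78.9 CPM (16.3 to 231) there, against 47.9 CPM in the others, and Ncf4 at 105 CPM (28.7 to 269), against 109 CPM. Rac2 was at 579 CPM (363 to 876), against 421 CPM. In the 11 of the 20 cells at 96 h without Pf4, chosen after their values were seen, Cyba was at 2378 CPM (1861 to 2995), Ncf1 at 297 CPM (136 to 564), Ncf4 at 793 CPM (508 to 1180) and Rac2 at 1387 CPM (1000 to 1875). Against the 891 cells without Cybb, these were 2.93-fold (2.29 to 3.69), 4.90-fold (2.22 to 9.42), 5.54-fold (3.53 to 8.30) and 3.23-fold (2.32 to 4.37) higher. Between 2 and 4 of the other members were found in each of the 11 cells, and all 5 in 4 of them. In 28 cells of the same library without Cybb and without Pf4, Cyba was at 804 CPM, Ncf1 at 77.3 CPM, Ncf4 at 131 CPM and Rac2 at 441 CPM, with intervals that include the levels of the 891 cells. Mpo was at 99.1 CPM (20.4 to 290) in the 11 cells and at 2418 CPM in the cells without Cybb. Other granulocyte genes moved with them: Prg2 was at 10901 CPM in the 11 cells, from at most 3 cells, and at 831 CPM without Cybb, Chil3, abundant in neutrophil precursors, was at 2048 and 128 CPM, and Itgb2 at 363 and 56.7 CPM. The part of these cell types in the levels of the members was not tested. The origin of these cells was not tested.

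**Figure D5:**
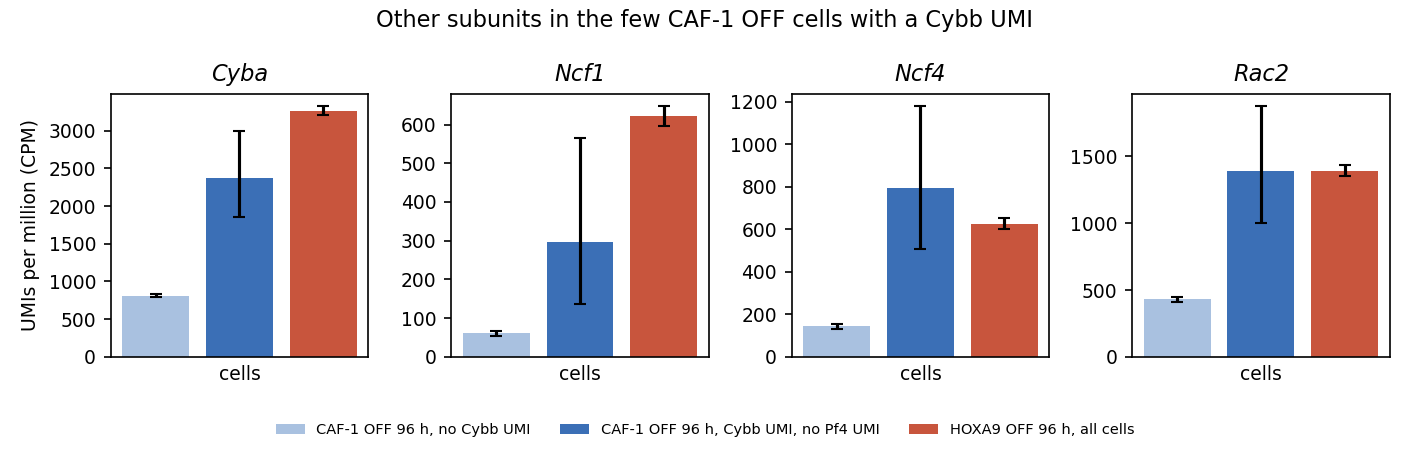
Level of 4 subunits (CPM, vertical axis, from 0) in CAF-1 OFF at 96 h in 891 cells without a Cybb UMI and 11 cells with Cybb and without Pf4, beside all cells of HOXA9 OFF at 96 h, with 95% counting intervals as bars. In the 11 cells, chosen after their values were seen, each subunit is higher than in the 891 cells, from 2.93-fold for Cyba to 5.54-fold for Ncf4. All 20 cells with Cybb, not drawn, have lower levels than the 11 (Cyba 1579, Ncf1 153, Ncf4 412 and Rac2 872 CPM).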

How the data were processed

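Live-sorted iGMPs were profiled by the authors with 10x 3′ v2 chemistry, aligned to mm10 with Cell Ranger (3.0.1 in the submitters' processing notes, which also name Seurat 3.0.1 and Scanpy 1.4.6). The deposited table holds raw UMI counts of 7821 barcodes by 27998 genes, in which the barcode suffix gives the library. Barcodes with 200 to 6000 genes and at most 10% mitochondrial UMIs were kept, and UMIs were summed per library and divided by the library total (CPM). With 1 library per group there is no test. Ratios used 10 CPM added to both libraries, a lower limit of 20 CPM on a gene's mean, and a 2-fold size. Against 0 UMIs, folds are bounds at 3 UMIs per library. Intervals are exact (Poisson for levels, Clopper-Pearson for shares and ratios) and cover counting error only. Thinning to 1300 UMIs drew without replacement. Scrublet called 125 of 5872 cells (2.13%) doublets, which were kept and left out in an alternative. Python 3.11.15, scipy 1.17.1, Scanpy 1.11.5, and, for scaling factors, edgeR 4.0.16 and DESeq2 1.42.0 under R 4.3.3 were used, and the code was tested on simulated data. Named are the members, Chaf1b, the genes of the lists, and the 3 genes most like each member, except some genes that are not reported here. The members and the lists were chosen with earlier results of these data known. Gene positions and promoters are from RefSeq on GRCm38.p6.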

Additional observations from a re-analysis of the deposited data

Results flagged for a closer look

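Mpo, which uses the hydrogen peroxide that follows from the oxidase, moved in opposite directions in the 2 arms at 96 h, with a log2 ratio of 0.73 where CAF-1 was inactivated and -5.12 where HOXA9 was. It was picked out because each arm's 1 library at 96 h lay on the other side of its own 0 h library by at least 1.5-fold. The difference was not tested.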

How the results depend on the processing

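No paired analysis was possible because each group has 1 library. In HOXA9 OFF, 5 of 5 members stayed at least 2-fold higher at 48 and 96 h under each other scaling, pseudocount and cell filter tried except UMIs per cell (added after the data were seen), which left 2 of 5 at both times with medians of 0.62 and 0.44. Over all genes tested, 290 to 794 were higher at 48 h and 556 to 1225 at 96 h, against 248 and 291 with UMIs per cell. On that scale Rac2 reversed, at -0.071 and -0.43. A limit of 4-fold left 2 of 5 at 48 h, where 204 of the 4789 genes tested were higher. The members' median at 48 and 96 h was 1.70 and 2.25 with 50 CPM added, 2.14 and 2.80 with TMM factors, 2.08 and 2.88 with median-of-ratios factors, 1.99 and 2.47 with all barcodes, 1.96 and 2.39 with at most 5% mitochondrial UMIs, and 2.03 and 2.83 without Rac2. Without mitochondrial and ribosomal protein genes it was 1.90 at 96 h. In CAF-1 OFF, 1 of 5 members was higher at 48 h and 1 at 96 h with 1 CPM added, 1 at 96 h with at most 5% mitochondrial UMIs, and 2 at 96 h with a limit of 1.5-fold. Over all genes tested, the numbers higher were 260, 425, 284 and 561 in this order. The members' median in CAF-1 OFF at 96 h was 0.14 with 50 CPM added and 0.68 with at most 5% mitochondrial UMIs, and at 48 h 0.18 without Rac2.

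The median of all genes at 48 and 96 h in HOXA9 OFF shifted by 0.25 and 0.38 with TMM factors, by 0.20 and 0.44 with median-of-ratios factors and by -1.05 and -1.47 with UMIs per cell. The share of calls that were higher went from 39.8% and 31.2% to 54.6% and 44.0%, 51.1% and 46.3%, and 7.74% and 7.48%, respectively, and in CAF-1 OFF at 96 h from 85.9% to 71.6% with UMIs per cell. All 5 members were found in 20.9% and 31.9% of HOXA9 OFF cells at 48 and 96 h without thinning, in 13.2% and 35.7% at 2600 UMIs (1114 and 426 cells), and in 0% and 0.581% where 2 UMIs were required. In CAF-1 OFF at 96 h it was 0.659% without thinning. Of 180 alternatives for the 20 ratios of single members, 107 stayed within the counting interval, 71 moved beyond it in the same direction or around 0, and 2 reversed.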
